A study of Homo sapiens with 2 samples.

Results

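The genes described here are STAT factors and regulators of the interferon response, listed as STAT2, STAT3, STAT5A, STAT5B, STAT6, IRF9, IRF1, SOCS1 and SOCS3. They were chosen by name, and each is followed through every probe set that the platform annotation assigns to it alone. Of the 9 listed genes, 8 were measured, with 23 of 54675 probe sets and 8 of 19775 genes. STAT2 is named by no probe set in the annotation used here and was not analysed. A further probe set that names IRF9 together with RNF31 was left out.

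Total RNA came from FaDu cells, a human cell line derived from a squamous carcinoma of the pharynx. The vector group carried the control vector and the GLUT4 group carried the GLUT4 sequence, in both cases after lentiviral transduction and puromycin selection of stable cells. Each group was hybridized to 1 Affymetrix Human Genome U133 Plus array, so no test was possible and no replicate stands beside any value, and the ways in which these cell populations differed cannot be told apart. SLC2A4, which encodes GLUT4, read 28.3 with the vector and 32.6 with GLUT4 (log2 difference 0.20), and whether its probe set lies in the introduced sequence was not determined. In bulk RNA, fewer expressing cells and less RNA per cell cannot be told apart.

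STAT proteins are latent transcription factors that Janus kinases (JAKs) phosphorylate at cytokine receptors. Type I interferon activates STAT2, which enters the nucleus with IRF9 and a further STAT as the ISGF3 complex and binds interferon-stimulated response elements (ISRE), while dimers of other STATs bind gamma-activated sites (GAS). STAT3 transmits IL-6 and related cytokines, STAT5A and STAT5B growth hormone, prolactin and IL-2 family cytokines, and STAT6 IL-4 and IL-13. IRF1 is a transcription factor that interferon-gamma induces through STATs and that maintains genes of antigen presentation. SOCS1 and SOCS3 are induced by STATs and shut the pathway down by inhibiting JAKs and receptors, SOCS1 mainly in interferon signaling and SOCS3 mainly at the IL-6 receptor subunit gp130. Activation of the STAT proteins by phosphorylation is not measured by an array.

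To place the feedback genes beside the elements through which the factors act, the RefSeq promoter windows of all 9 listed genes (GRCh38.p14, 250 bases before to 50 after a start site, 12 windows) were searched on both strands for the GAS letters TTCNNNGAA and the ISRE core letters GAAANNGAAA. These motifs do not overlap in any of the 4 windows printed. The GAS letters stood in 7.66% and the ISRE core letters in 3.57% of 35116 RefSeq promoter windows of the same length. IRF1 held 1 GAS match that starts 124 bases before the start site, and IRF9 held 1 that starts 63 bases before it. SOCS1 held 1 ISRE core match that starts 113 bases before the start site. Neither window of SOCS3 held a match, nor did those of STAT2, STAT3, STAT5A, STAT5B and STAT6, which says only that these letters are not in these windows. A match is a description of the sequence and not a bound site. The windows of the genes with a match are printed 5' to 3' on the strand of the gene, with the matches in capitals. The window at the outer start site of SOCS3, the gene with the largest difference on its brightest probe set, is printed with them.
IRF1 (chr5:132490724-132491023, minus strand): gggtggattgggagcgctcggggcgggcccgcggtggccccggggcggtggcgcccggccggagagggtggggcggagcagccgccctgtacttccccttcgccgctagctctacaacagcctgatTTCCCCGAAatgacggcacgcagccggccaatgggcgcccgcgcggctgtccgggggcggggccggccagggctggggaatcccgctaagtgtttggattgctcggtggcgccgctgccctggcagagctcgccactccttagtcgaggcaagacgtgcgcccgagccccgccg
IRF9 (chr14:24161015-24161314, plus strand): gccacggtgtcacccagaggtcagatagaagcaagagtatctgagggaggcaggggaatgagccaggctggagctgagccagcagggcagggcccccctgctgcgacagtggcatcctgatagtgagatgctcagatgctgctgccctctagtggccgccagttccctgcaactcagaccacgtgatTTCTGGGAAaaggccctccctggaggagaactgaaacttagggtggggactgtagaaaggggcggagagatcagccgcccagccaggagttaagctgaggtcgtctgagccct
SOCS1 (chr16:11256155-11256454, minus strand): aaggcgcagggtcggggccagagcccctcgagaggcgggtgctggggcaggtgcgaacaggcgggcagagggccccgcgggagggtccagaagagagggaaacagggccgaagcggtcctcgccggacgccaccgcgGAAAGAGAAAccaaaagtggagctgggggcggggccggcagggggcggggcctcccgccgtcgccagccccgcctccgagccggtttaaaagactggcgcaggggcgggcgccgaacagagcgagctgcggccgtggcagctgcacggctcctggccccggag
SOCS3 (chr17:78360876-78361175, minus strand): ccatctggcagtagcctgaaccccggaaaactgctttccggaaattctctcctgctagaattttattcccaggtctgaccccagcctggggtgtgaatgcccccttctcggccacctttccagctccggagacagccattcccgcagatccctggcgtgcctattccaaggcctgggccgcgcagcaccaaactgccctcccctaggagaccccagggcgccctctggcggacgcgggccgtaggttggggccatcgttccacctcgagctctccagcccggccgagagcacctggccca

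The deposited values were linear intensities already normalized between the arrays, with medians of 39.7 for the vector and 39.1 for GLUT4. Differences are log2 values, GLUT4 minus vector, and the probe set with the highest mean stands for a gene as its main probe set. Intensities of different probe sets are not levels that can be set against each other. The one measure of spread was the disagreement between probe sets of the same gene. The differences of a pair of probe sets had an SD of 0.29 over 10523 genes, which gives 0.20 per probe set. Both probe sets of a pair were read on the same arrays. This SD therefore does not cover variation between cultures, RNA preparations, labelings or hybridizations.

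STAT3 was the STAT gene of this group with the largest difference. With the vector its brightest probe set read 1874, and with GLUT4 it read 1509, which is 1.24-fold lower (log2 difference -0.31). The next probe set read 826 and 711 (-0.22), and the third read 732 and 629.6 (-0.22). These 3 probe sets were lower on the GLUT4 array by nearly the same amount, with a mean difference of -0.25 ± 0.06 (SD over 3 probe sets of the same arrays). Of 1602 genes with 3 probe sets above 39.3, the median intensity of all probe sets, 4.24% had all 3 at or below the highest of these differences. That cut comes from the STAT3 values themselves, so the share is a description and not a test. The fourth STAT3 probe set was dim and opposite in direction, at 20.0 and 25.0 (0.32), and with it the mean over all probe sets was -0.11. None of the 4 passed 1.5-fold, the threshold of the methods.

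The other STAT genes were at nearly equal levels on both arrays. STAT5A, which is represented by 1 probe set, read 96.5 and 93.1 (-0.05). STAT5B read 433 and 437 on its brightest probe set (0.01), and its other 4 probe sets had differences between -0.06 and 0.17, with the highest at the dimmest, which read 32.3 and 36.5. STAT6 read 1291 and 1275 on its brighter probe set (-0.02) and 51.2 and 53.4 on the other (0.06). For STAT5B and STAT6 the probe sets therefore stood on both sides of 0, each within the SD of a single probe set. STAT5B, STAT5A and STAT3 are neighbors on the chromosome, with no other protein-coding gene between them in RefSeq, and of these only STAT3 had a main probe set beyond that SD.

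Among the interferon regulatory factors, IRF9, the DNA-binding subunit of ISGF3, read 154 with the vector and 147 with GLUT4 (-0.07). It has 1 probe set, so no second measurement stands beside this value. IRF1 differed by an amount that depended on the probe set. Its brighter probe set, which the annotation pairs with a RefSeq transcript, read 496 and 452 (-0.14, 1.10-fold lower). The other, paired with an expressed sequence tag, read 409 and 238 (-0.78, 1.72-fold lower) and had the lowest difference of all 23 probe sets. Both were above the median signal and both were lower on the GLUT4 array, and they differed from each other by 0.65. Of 5015 genes with 2 probe sets, 3.41% had a gap at least as large, and the median gap was 0.16. The mean of both IRF1 probe sets was -0.46 ± 0.46 (SD over 2 probe sets). The study listed IRF1 from these same arrays, so its direction there is not independent of the values given here.

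SOCS3 had the largest difference on a main probe set. It read 1526 with the vector and 959 with GLUT4, which is 1.59-fold lower (log2 difference -0.67), and 1.05% of all genes lay lower. The second read 208 and 168 (-0.32), the third 57.2 and 47.7 (-0.26), and the fourth, below the median signal, 27.1 and 24.5 (-0.15). All 4 SOCS3 probe sets were thus lower on the GLUT4 array, and only the brightest passed 1.5-fold. The annotation pairs that brightest probe set with an expressed sequence tag, and the third (-0.26) with a RefSeq transcript. Their mean was -0.35 ± 0.23 (SD over 4 probe sets). Of 1602 genes with 3 probe sets above the median signal, 2.81% had all 3 at or below the highest of the SOCS3 differences. This share was computed for STAT3 and SOCS3 only, each with a cut from its own values, and is not a test.

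SOCS1 was near the median signal or below it on all 4 of its probe sets. The brightest read 50.2 and 41.1 (-0.29), the next 40.3 on both arrays (0.00), and the others 29.8 and 31.2 (0.07) and 14.4 and 11.7 (-0.30). These probe sets do not share a direction, and their mean was -0.13 ± 0.19 (SD over 4 probe sets). Every SOCS1 probe set carries a name ending in s_at or x_at, which marks probes that can match several transcripts.

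**Figure D1:**
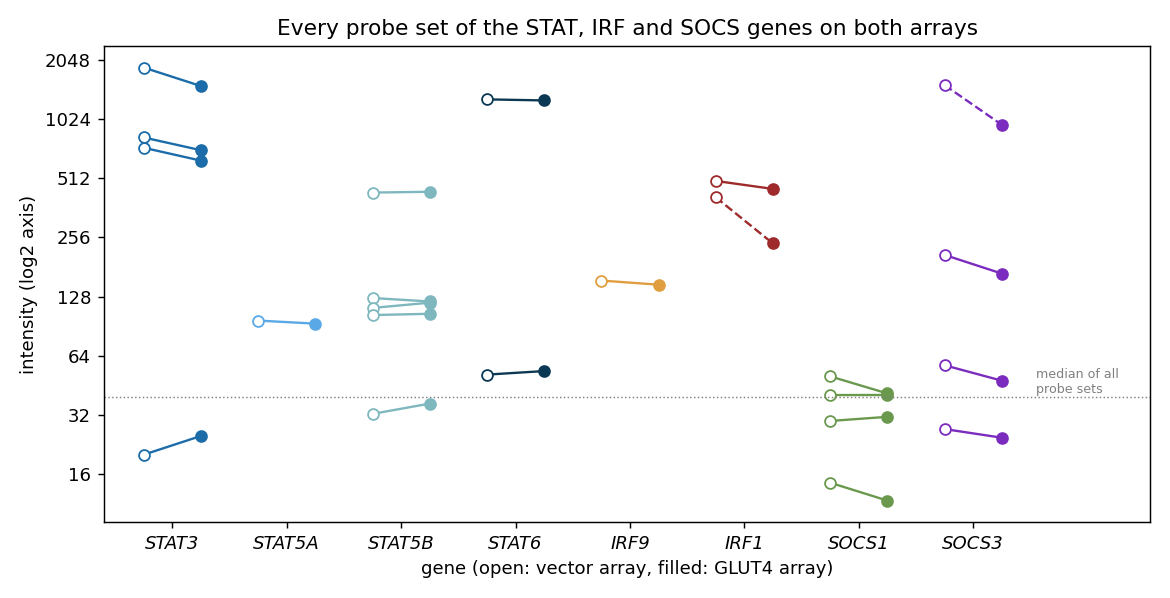
Intensity on a log2 axis of each of the 23 probe sets of the 8 measured genes, with an open point for the vector array, a filled point for the GLUT4 array and 1 line per probe set; dashed lines passed 1.5-fold, and the dotted line is the median of all probe sets at 39.3. The lines of SOCS3 all slope down, the 3 bright lines of STAT3 slope down in parallel, and those of STAT5A, STAT6 and the brighter STAT5B probe sets are nearly level.

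Across the group, 2 of 23 probe sets were more than 1.5-fold lower with GLUT4, 1 of SOCS3 and 1 of IRF1, beside 1.22% of all probe sets. None was more than 1.5-fold higher, beside 2.04% of all. On main probe sets, 1 of the 8 genes, SOCS3, was more than 1.5-fold lower and none was more than 1.5-fold higher, beside 1.54% and 1.84% of all genes. With so few genes, these counts set nothing apart from the array as a whole. The main probe sets had a median difference of -0.10, against -0.02 for all genes, and 7 of the 8 lay below 0 (6 with equal array medians, and all 8 with quantile normalization or a loess fit, since STAT6 and STAT5B lie so near 0), as did 52.2% of all genes. Over all 23 probe sets, many of which read the same gene, 15 lay below 0 and 8 above, beside 51.5% of all probe sets below 0.

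From the lowest to the highest main difference, the order was SOCS3 (-0.67), STAT3 (-0.31), SOCS1 (-0.29), IRF1 (-0.14), IRF9 (-0.07), STAT5A (-0.05), STAT6 (-0.02) and STAT5B (0.01). The gap of 0.36 between SOCS3 and STAT3 was larger than 0.29, the SD of a pair of probe sets. All other neighbors in this order were closer than that SD, with gaps from 0.02 to 0.15. The place of IRF1 is not settled, since its second probe set lay below the main probe set of SOCS3. Averaged over all probe sets, IRF1 was lowest (-0.46), with SOCS3 at -0.35 and STAT3 at -0.11. Averaged over those above the median signal, these genes were at -0.46, -0.42 and -0.25. The first place of SOCS3, and a gap to STAT3 above 0.29, therefore hold for main probe sets only.

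**Figure D2:**
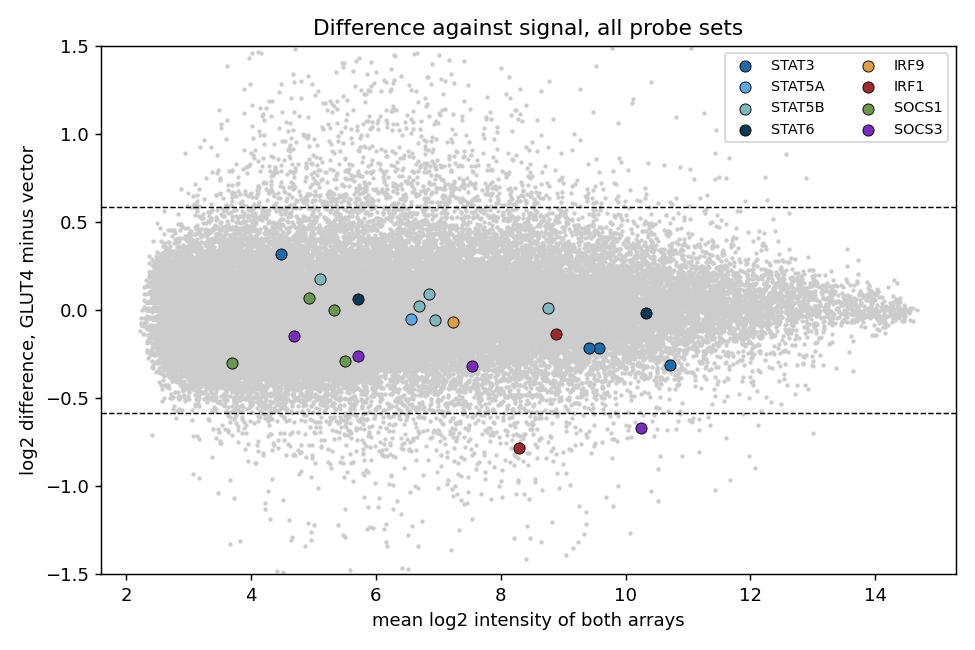
Log2 difference (GLUT4 minus vector, vertical axis) plotted over the mean log2 intensity, with all probe sets in grey, those of the 8 genes in color and dashed lines at 1.5-fold; 72 probe sets lie beyond the vertical axis. Of the colored points, 1 of IRF1 and 1 of SOCS3 lie under the lower line, and both are far above the dim end of the signal.

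How much probe sets of the same gene disagreed differed between the genes. The range from the lowest to the highest difference was 0.63 for STAT3, 0.52 for SOCS3 and 0.37 for SOCS1, where the median over 1393 genes with 4 probe sets was 0.37. At least as large a range was found in 17.2% of those genes for STAT3, in 26.1% for SOCS3 and in 50.5% for SOCS1. Among the 3 STAT3 probe sets above the median signal, the range was 0.10. STAT5B, with 5 probe sets, ranged over 0.23, and 87.8% of 706 such genes had at least that range. STAT6, with a range of 0.08, was also in the more uniform part, as 73.3% of genes with 2 probe sets ranged at least as far. IRF1 therefore had the rarest disagreement of the 6 genes with several probe sets.

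**Figure D3:**
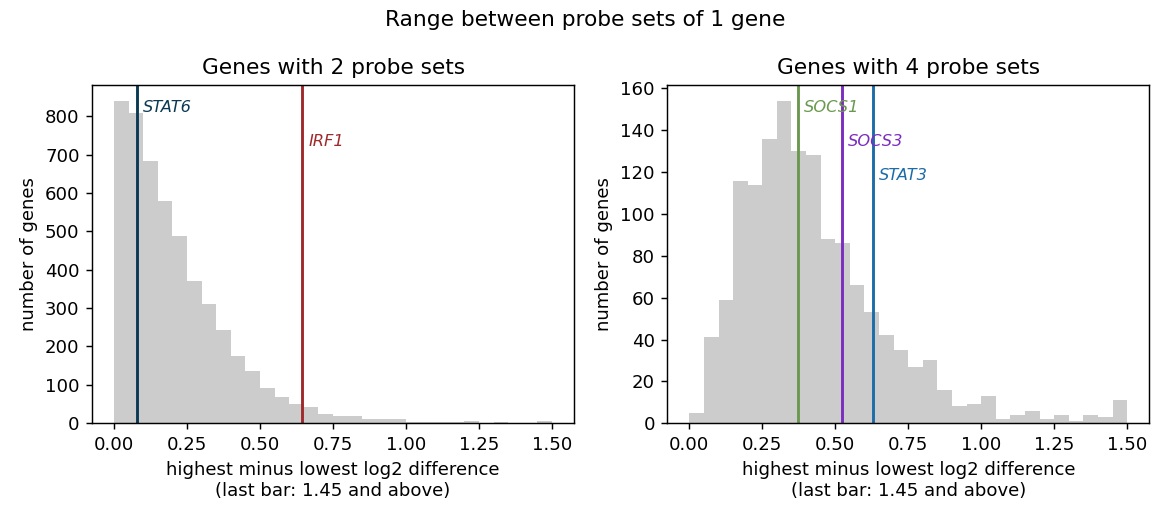
Number of genes by the range of log2 differences between their probe sets, for genes with 2 probe sets (left) and 4 probe sets (right), with vertical lines at the ranges of the named genes; ranges above the axis are counted in the last bar. IRF1 at 0.65 lies in the sparse right tail, while STAT6 at 0.08 and SOCS1 at 0.37 lie in the bulk.

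The genes that act with these factors were mostly within 1.5-fold, as were most genes on the array. In 9 lists of receptors, JAK kinases and regulators, 57 genes were measured, of which 2 (3.51%) were more than 1.5-fold lower and none higher, beside 1.54% and 1.84% of all genes, with a median of -0.05. All 6 interferon receptor genes, all 4 JAK genes, all 6 other SOCS box genes, all 4 PIAS genes, which restrain STATs through SUMO, all 6 phosphatase and USP18 genes, which also damp the pathway, and all 9 other measured IRF and IRF2-binding protein genes were within 1.5-fold. JAK1, the kinase shared by interferon and gp130 receptors, read 1895 and 1945 (0.04). The gene of gp130 itself, IL6ST, read 4035 and 3321 (-0.28, or -0.11 averaged over its probe sets). CISH, a feedback gene of STAT5, read 154 and 117 (-0.40, or -0.12 averaged over its probe sets). SOCS2, another STAT5 feedback gene, read 4609 and 4714 (0.03, or 0.12 averaged over its probe sets). The genes past the threshold were STAT4, the STAT of IL-12 signaling, at 475 and 230.5 on its only probe set (-1.04, 2.06-fold lower), and IL27RA, a receptor subunit that pairs with gp130, at 330.1 and 195 (-0.76; -0.40 averaged over its probe sets, within 1.5-fold).

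Of the ligands, 9 measured interferon genes were within 1.5-fold, and 8 of them lay below the median signal. Among 7 gp130 cytokines, 2 were more than 1.5-fold higher with GLUT4, beside 1.84% of all genes. IL6, which signals through STAT3 and induces SOCS3, read 2239 and 3776 (0.75), and LIF, another activator of STAT3, read 165 and 248 (0.59, within 1.5-fold with the arrays quantile normalized, with a loess fit or with an offset of 32). On the GLUT4 array, where IL6 read higher, the main probe sets of STAT3 and SOCS3 read lower. STAT3 was within 1.5-fold, as was SOCS3 with its probe sets averaged, and a link between these differences was not tested.

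Genes that these factors are known to induce were described by list. Of 37 ISGF3 target genes, 13 were more than 1.5-fold lower and none higher, with a median of -0.38 and 33 below 0. Over all genes, 1.54% were more than 1.5-fold lower and 1.84% higher, with a median of -0.02 and 52.2% below 0. The lowest were OASL, an oligoadenylate synthetase-like antiviral protein, at -1.57, and the ISG15 ligase HERC5 at -1.34. Of 29 IRF1 and interferon-gamma target genes, 4 were more than 1.5-fold lower and none higher, with a median of -0.27 and 25 below 0. IL15, a cytokine for lymphocytes, read 126 and 56.3 (-1.16), and PSMB9, an immunoproteasome subunit, read 1203 and 719 (-0.74). In the same samples IRF9 (-0.07) and the brighter IRF1 probe set (-0.14) were within the SD of a single probe set, while the other IRF1 probe set was at -0.78 and the mean of both at -0.46. With the probe sets of a gene averaged, 10 in place of 13 of the ISGF3 targets and 2 in place of 4 of the IRF1 targets were past the threshold. With an offset of 32, 9 of the ISGF3 targets and 3 of the IRF1 targets were past it. Both lists were written with earlier results of these arrays known, and several of their genes stand in the tables that the study drew from them.

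**Figure D4:**
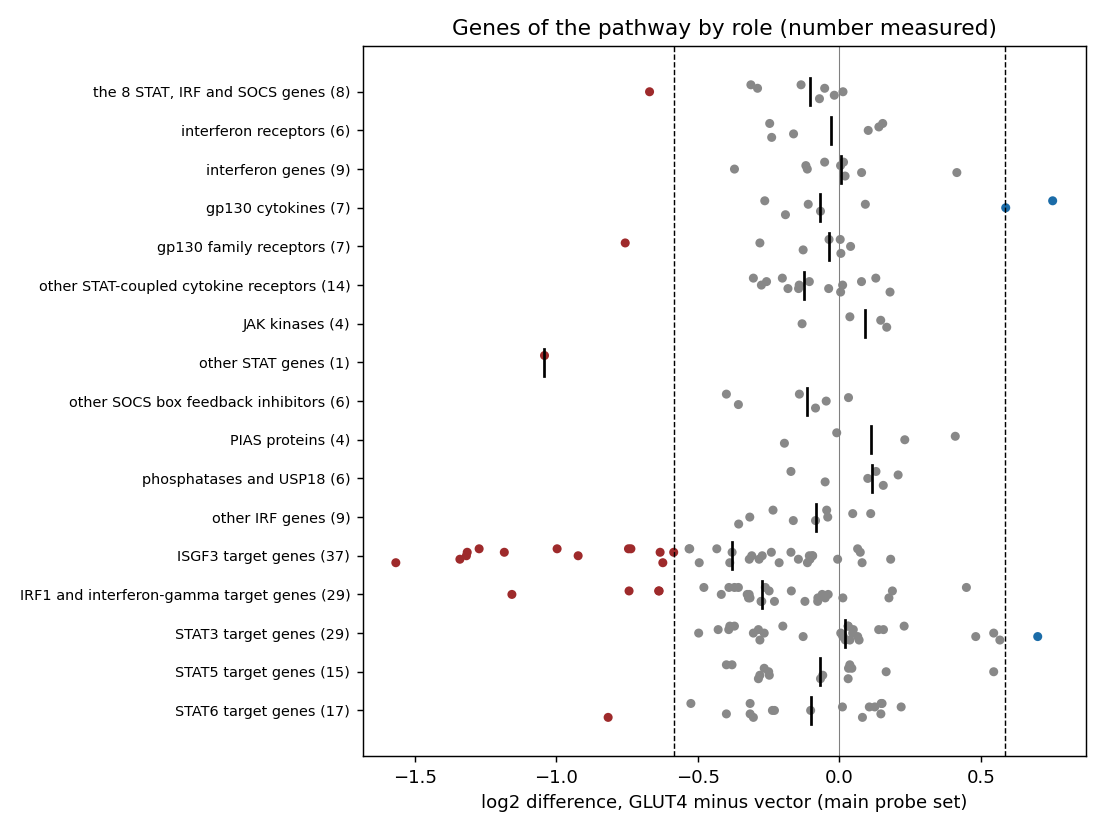
Log2 difference on the main probe set (horizontal axis) of each gene by role, with black bars at the list medians, dashed lines at 1.5-fold, red points more than 1.5-fold lower and blue points more than 1.5-fold higher. Red points gather in the 2 lists of interferon targets (13 and 4), while the lists of receptors, kinases and regulators hold 2 and the STAT6 targets 1.

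Marker genes were read to check the labels. All 9 measured squamous epithelial markers were above the median signal on average, among them KRT5, a basal keratin, at 11024 and 13093. Of these 9, 1 was more than 1.5-fold lower, the epithelial adhesion molecule EPCAM at 5361 and 3021 (-0.83), and 1 higher, the basal keratin KRT14 at 1963 and 3985 (1.02), while the epithelial cadherin CDH1 was at -0.54. The leukocyte list of 10 genes had a median difference of -0.05, with 1 gene more than 1.5-fold lower and none higher, and a summed intensity of 571 with the vector and 426 with GLUT4. The gene past the threshold was CD14, a monocyte receptor for bacterial lipopolysaccharide and the brightest of the list, at 251 and 143 (-0.81), and its difference made up most of that in the sum. The integrin chain ITGB2 was at -0.42. The defining marker PTPRC, the pan-leukocyte CD45, was near the lowest values of the arrays at 8.30 and 8.14. Fibroblast markers had a median of 0.19 and summed intensities of 852 and 1474. Of these 7, 2 were more than 1.5-fold higher, the matrix proteoglycans DCN (1.12) and LUM (1.05). COL1A1 was at 0.01, PDGFRB at 0.20 and PDGFRA at -0.22, and 3 of the 7 (COL1A2, COL3A1 and PDGFRA) lay below the median signal. Endothelial markers had a median of -0.17 and sums of 224 and 133, with 1 of 5, PECAM1 (-1.55), more than 1.5-fold lower. VWF was at 0.19, and 3 of the 5 (CDH5, KDR and TIE1) lay below the median signal. No marker was listed at 0. Both arrays hold RNA of the FaDu line, and whether any other cells had a part in the values of STAT3, IRF1 and SOCS3 was not tested.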

How the data were processed

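Total RNA of FaDu cells carrying GLUT4 or the control vector was hybridized to Affymetrix Human Genome U133 Plus arrays, 1 per group. According to the methods, the RNA was labeled with a kit that primes at the 3' end of transcripts, and expression was normalized with GeneSpring. MAS5, with no version, is named in the submitters' notes on processing. The sources used here do not say how these steps were combined. The authors deposited linear intensities, whose maxima are equal and whose sorted log2 values differ by at most 0.15 between the arrays. The number of arrays limits the precision, and no detection calls were used.

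Intensities were log2-transformed without an offset, and differences were taken as GLUT4 minus vector. Of 54675 probe sets, 41097 name 1 gene and 1801 several in the platform annotation, and the others are unnamed here. Symbols were updated by gene ID through RefSeq (GRCh38.p14). For each gene the probe set of highest mean was used, and the threshold of 1.5-fold is that of the methods. The rule for naming took all probe sets of the listed genes, up to 4 genes past the threshold in each of 16 pathway lists, family members of the listed genes, and SLC2A4; some genes within 1.5-fold were named after their values were seen. Of 192 pathway genes listed, 185 were measured. The genes and lists were chosen with earlier results of these data known. Probe set ranges, the shares of genes set beside STAT3 and SOCS3, and the motif search were added after the values were seen. The calculation was tested on simulated data. Promoter sequences are those of RefSeq, matched by symbol for all 9 listed genes. Python 3.11.15, numpy 2.4.6, pandas 2.3.3, statsmodels 0.14.6 and matplotlib 3.10.9 were used.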

Additional observations from a re-analysis of the deposited data

How the results depend on the processing

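The 8 main differences were recomputed with quantile normalization, equal array medians, a loess fit on the mean (fraction 0.3), an offset of 32, only probe sets above the median signal, no probe sets ending in x_at or s_at, and the average over all probe sets of a gene. An average over the probe sets above the median signal was added after seeing the data. Of 62 recomputed values, 57 moved by less than the single probe set SD of 0.20. That count includes values that could not move, where a setting kept the same main probe set or the gene has 1 probe set. Equal array medians moved every gene by the same 0.02. Averaged over all probe sets, STAT3 came to -0.11, IRF1 to -0.46 and SOCS3 to -0.35, within 1.5-fold. Averaged over probe sets above the median signal, IRF1 came to -0.46 and SOCS3 to -0.42, so that 0 of the 8 genes were past 1.5-fold under either average. SOCS3 stayed more than 1.5-fold lower under the other alternatives. With the offset of 32, 1 pathway gene in place of 3 was more than 1.5-fold higher. Without probe sets ending in x_at or s_at, SOCS1 and STAT6 have no value. Over all alternatives STAT5B ran from -0.00 to 0.05 and STAT6 from -0.04 to 0.02, so their sign is not settled. STAT3 ran from -0.33 to -0.11 and SOCS1 from -0.29 to -0.13, though the probe sets of each do not all share a direction. The offset damps low signal by construction, and over the whole array it left 289 in place of 665 probe sets lower and 477 in place of 1117 higher. No paired analysis was possible because each group holds 1 array.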

Other observations

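Targets of the other STAT factors stood on both sides of 0. Of all genes, 1.54% were more than 1.5-fold lower, 1.84% were more than 1.5-fold higher and 52.2% lay below 0. Of 29 STAT3 target genes, 18 lay above 0 and 11 below, with a median of 0.02, and the 1 past 1.5-fold, the fibrinogen chain gene FGB, was higher but dim at 20.5 and 33.4 (0.70). PIM1, a survival kinase that STAT3 and STAT5 induce, read 565 and 825 (0.55), TWIST1, a mesenchymal transcription factor, 583 and 864 (0.57), and CEBPB, a partner of STAT3 in inflammatory genes, 7121 and 5292 (-0.43). All 3 were within 1.5-fold as reported, but with equal array medians TWIST1 passed it. The number of STAT3 target genes more than 1.5-fold higher was 2 with equal array medians or without probe sets ending in x_at or s_at, and 0 with the offset of 32, with probe sets above the median signal alone and with either average over probe sets. None of 15 STAT5 target genes was past 1.5-fold, with a median of -0.07. Of the cyclin genes among them, CCND1 was at -0.27, CCND2 at -0.25 (-0.10 averaged over its probe sets) and CCND3 at -0.25. Of 17 STAT6 target genes, 1 was past 1.5-fold, the serpin SERPINB4 at 73.8 and 41.9 (-0.82), and none was with the offset of 32 or without probe sets ending in x_at or s_at, which removes that probe set. Its close paralog SERPINB3 read 171 and 137 (-0.32). These paralogs are nearly identical in sequence, so their probe sets may share signal. The immunosuppressive ligand PDCD1LG2 read 41.5 and 28.9 (-0.52).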
